A study of Homo sapiens with 6 samples.

Results

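The zinc-finger genes of human chromosome 19 whose approved symbol is ZNF followed by a number were described in HCT116 cells, a human colorectal carcinoma line, with and without overexpression of the RNA-binding protein RBM47. Members were the protein-coding rows of chromosome 19 with such a symbol and a mean count of at least 10 over the 6 libraries. Of 185 such symbols on the chromosome, 157 met the count minimum and 28 did not, and the whole table held 28491 genes. All 157 passed the filter on low counts and were tested.

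Proteins of this family carry tandem C2H2 zinc fingers, in which a pair of cysteines and a pair of histidines hold a zinc ion and neighbouring residues contact DNA bases. Many also carry a KRAB domain at the amino end, which binds the co-repressor TRIM28, and TRIM28 brings the histone methyltransferase SETDB1, HP1 proteins and DNA methylation to the bound site. The genes arose largely by tandem duplication, so that neighbours on chromosome 19 often have closely related sequences, and many of the proteins bind and silence transposable elements.

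Poly(A) RNA was sequenced 48 h after HCT116 cells received a control plasmid (NC, 3 libraries) or a plasmid carrying RBM47 (RBM47-OE, 3 libraries). The study's methods name the vector pIRES-hrGFP-1a, a KC stranded kit and growth in McCoy's 5A, whereas pcDNA3.1-3xFlag-RBM47, a NEBNext directional kit and DMEM are in the labels. A single cell line was used, transfection was transient, and nothing says that the libraries of a group came from separate cultures, so p-values measure the spread between these libraries, which may be technical. Total counts on genes were between 26792409 and 35477983 per library. RBM47 stood at 1.91, 2.33 and 1.94 FPKM (fragments on a gene scaled by the authors for gene length and library depth) in NC and at 131.3, 130.4 and 127 FPKM in RBM47-OE, where plasmid transcripts are included. All 7 epithelial markers had a row and summed to between 1970 and 2147 FPKM in NC and between 1827 and 2069 FPKM in RBM47-OE. Of 6 markers of leukocytes, endothelium and fibroblasts, 4 had a row and summed to at most 2.15 FPKM, with PECAM1 at 0 in a RBM47-OE library.

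The members differ widely in base composition, against which their changes are set below. A stretch of 84 bases coding for 1 zinc finger is shown from 4 genes that span this range. Capitals mark the codons of the zinc-binding cysteines and histidines. The stretches lie on the plus strand of GRCh38 at chr19:24126886-24126969 (ZNF254), chr19:36236576-36236659 (ZNF146), chr19:42078838-42078921 (ZNF574) and chr19:55614378-55614461 (ZNF865).
ZNF254: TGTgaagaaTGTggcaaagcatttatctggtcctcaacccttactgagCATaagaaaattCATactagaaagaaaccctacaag
ZNF146: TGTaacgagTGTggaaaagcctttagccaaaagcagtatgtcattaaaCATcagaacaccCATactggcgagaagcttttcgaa
ZNF574: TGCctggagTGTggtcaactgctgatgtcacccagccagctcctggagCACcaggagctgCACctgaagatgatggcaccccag
ZNF865: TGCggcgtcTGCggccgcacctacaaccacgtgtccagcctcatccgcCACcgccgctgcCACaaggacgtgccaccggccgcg
These stretches hold 38.1%, 41.7%, 60.7% and 72.6% G or C. Over all 1828 finger-coding stretches found in 156 members, the median was 41.7%.

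Chromosome 19 ZNF genes were expressed at low levels. The median member stood at 0.887 FPKM in NC, above 35.04% of protein-coding genes of the FPKM table, and 84 members were under 1 FPKM while 13 reached 5 FPKM. Mean counts ran from 10.8 to 2693 with a median of 178.5, and the median standard error of a log2 fold change was 0.15. The most highly expressed members were ZNF428 with 21.5 ± 1.95 FPKM in NC and 19.7 ± 1.18 FPKM in RBM47-OE (SD, n = 3), ZNF146, ZNF787, ZNF581 and ZNF579. For ZNF428, 32.1% of exonic bases overlap a gene on the other strand, and whether counting used strand is not given in the sources used here.

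More members were higher than lower in RBM47-OE. At an adjusted p under 0.05 (edgeR's quasi-likelihood test, Benjamini-Hochberg over 16260 genes), 36 of 157 members (22.9%) were higher, against 19.1% of all genes tested, and 10 (6.37%) were lower, against 16.9%. The fitted change was positive in 122 members and negative in 35, with a median log2 fold change of 0.20 and quartiles of 0.02 and 0.38, beside a median of 0.00 over all genes tested. Changes were small, from 1.54-fold lower to 1.68-fold higher. By the thresholds the study set (fold change over 1.5 and unadjusted p under 0.01), 9 of 157 members were higher, against 1.51% of all genes. Only 1 of 157 was lower, against 0.873% of all genes. Groups did not overlap in 46 members (29.3%) with RBM47-OE on the high side, against 23.2% of all genes. With it on the low side there were 14 (8.92%), against 23.4% of all genes. Single libraries moved these counts, and the shares of all genes called in the same fits are not given here. Without RBM47-OE replicate 2, 15 members were higher and 6 lower, with 1 higher and 0 lower at the study's thresholds. Without RBM47-OE replicate 1, 58 were higher, 21 of them at the study's thresholds. Without NC replicate 2, 22 were higher and 5 lower, and the lower members numbered 6, 3 and 5 without NC replicate 1, NC replicate 3 and RBM47-OE replicate 3. The median log2 difference of the members from the NC mean was 0.10, 0.39 and 0.20 in RBM47-OE replicates 1, 2 and 3.

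**Figure D1:**
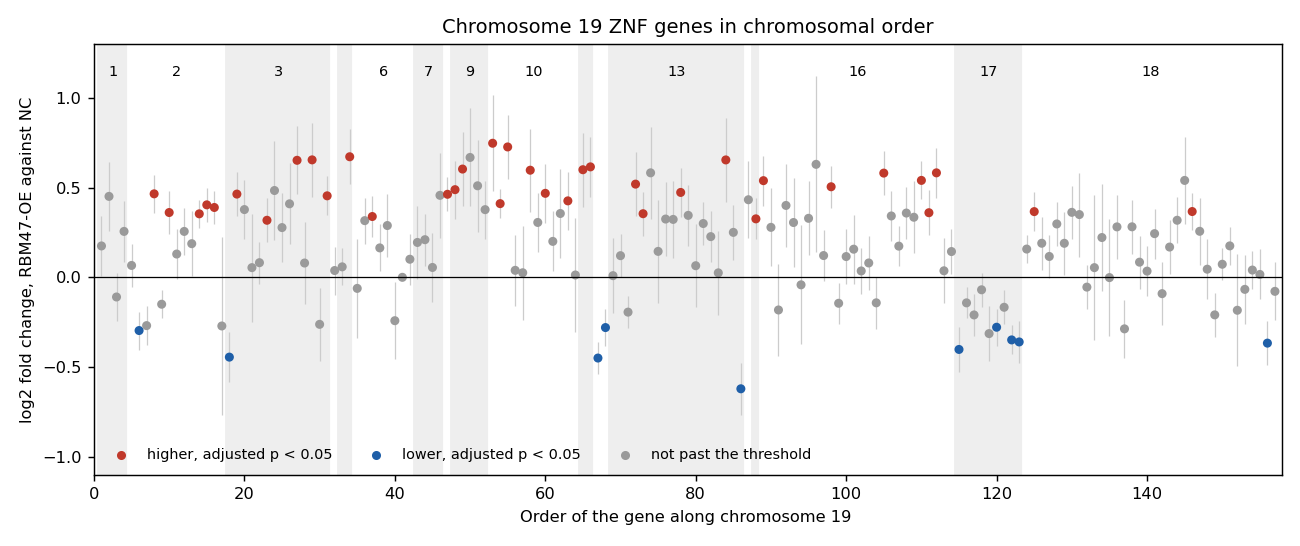
Log2 fold change of each member, RBM47-OE against NC, in order along chromosome 19, with standard errors as bars and shading and numbers for clusters. Red points are the 36 members that were higher and blue points the 10 that were lower at an adjusted p under 0.05, and all 9 members of cluster 17 lie below 0. No bar is drawn for ZNF493, whose fitted change was too near 0 to give one.

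The changes followed the GC content of the exons. Across the members, Spearman's rho between exonic GC content and the log2 fold change was -0.47 (n = 157 genes, which share libraries and are not replicates), and across all genes tested it was -0.635 (n = 16229). In RBM47-OE replicates 1, 2 and 3 taken alone, rho across the members was -0.25, -0.45 and -0.51. Of 127 members with an exonic GC content under 50%, 35 (27.6%) were higher and 0 lower at the adjusted threshold in edgeR. Their median log2 fold change was 0.29, and of all genes 19.1% were higher and 16.9% lower. Among the 30 members at or above 50%, 1 (3.33%) was higher (ZNF565) and 10 (33.3%) were lower (median -0.19). The 20 equal bins of all genes moved in the same direction, from a median of 0.38 in the bin around 36.4% GC to -0.23 around 60.6%. A second fit gave each library its own loess curve on GC content as an offset. The curve was fitted to log2 level minus each gene's mean over all libraries. It therefore also takes out differences between the groups that follow GC content. With that offset, 12 members (7.64%) were higher, against 5.97% of all genes, and 3 (1.91%) were lower, against 8.56%. Of the changes 96 were positive and 61 negative, and the median log2 fold change was 0.08. At the study's thresholds, 1 member was higher with the offset (ZNF565, against 0.481% of all genes) and 1 was lower (ZNF738, against 0.567%).

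**Figure D2:**
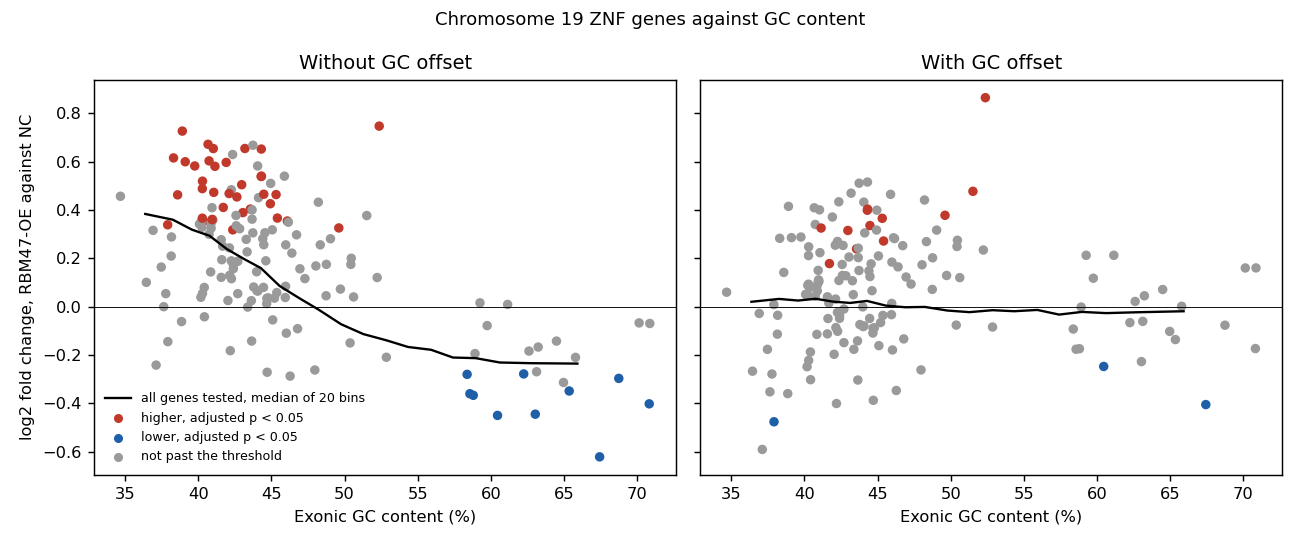
Log2 fold change of the 157 members against exonic GC content (%), without and with a GC offset, with the median of all genes tested in 20 GC bins as a black line and calls at an adjusted p under 0.05 in colour. Without the offset the members lie along the falling line of all genes, and with it 12 members are higher and 3 lower.

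Neighbouring groups of genes showed where the family lay against this background. ZNF genes on other chromosomes (218, median exonic GC content 46.0%) had 52 higher and 19 lower at the adjusted threshold in edgeR, with a median log2 fold change of 0.14, and 24 higher and 6 lower with the GC offset, with a median of 0.08. Other protein-coding genes of chromosome 19 (857 tested, 59.8% GC) had 8 higher and 399 lower, with a median of -0.23, and 29 higher and 114 lower with the offset, with a median of -0.04. The chromosome 19 ZNF genes had a median GC content of 43.8%, with 22.9% higher and 6.37% lower, and 7.64% and 1.91% with the offset. The share higher was thus close in the ZNF genes on and off chromosome 19. Of all genes tested, 19.1% were higher and 16.9% lower, and 5.97% and 8.56% with the offset. No test of the difference between these gene groups was run, since genes of a group are not replicates.

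Members that met the study's thresholds were 9 that were higher and ZNF296. ZNF565, on the minus strand, spans the whole of ZNF146 on the plus strand and shares 12.3% of its exonic bases with other genes, nearly all on the other strand. It had 1.22, 0.868 and 1.36 CPM (counts scaled by TMM to a common library size) in NC and 1.61, 2.40 and 1.72 CPM in RBM47-OE, a log2 fold change of 0.75 (SE 0.27, adjusted p = 0.030, edgeR). ZNF566 had 3.54, 2.66 and 2.47 CPM in NC and 4.12, 4.73 and 5.45 CPM in RBM47-OE, a log2 fold change of 0.73 (SE 0.18, adjusted p = 0.0029, edgeR). In each of these genes every RBM47-OE library lay above every NC library. ZNF14 had 4.11, 3.82 and 3.37 CPM in NC and 5.61, 6.73 and 5.66 CPM in RBM47-OE, a log2 fold change of 0.67 (SE 0.15, adjusted p = 0.0015, edgeR). ZNF799 had 2.21, 2.11 and 2.43 CPM in NC and 3.06, 3.86 and 3.69 CPM in RBM47-OE, a log2 fold change of 0.65 (SE 0.19, adjusted p = 0.0087, edgeR). ZNF14 and ZNF799 did not overlap between groups either, and the coding sequence of ZNF799 is 93.5% identical to that of ZNF443, so reads that fit either gene equally well would be missing from the unique counts. The remaining 5 were ZNF112, ZNF181, ZNF564, ZNF780A and ZNF780B, with log2 fold changes of 0.65, 0.60, 0.65, 0.62 and 0.60. Groups overlapped for ZNF564, ZNF780A and ZNF780B, where RBM47-OE replicate 2 was highest. For ZNF564, 69.9% of exonic bases are shared with another gene on the same strand. With the GC offset, ZNF565 alone of the 9 stayed past the adjusted threshold, with a log2 fold change of 0.86 (adjusted p = 0.031, edgeR). Leaving out 1 library ended the adjusted call in at least 1 case for ZNF112, ZNF181, ZNF564, ZNF565, ZNF780A and ZNF780B, always including RBM47-OE replicate 2.

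Also among the 8 largest rises without overlap were ZNF585A, at a log2 fold change of 0.60, and ZNF525, at 0.58. ZNF585A is 96.1% identical in coding sequence to ZNF585B and was at 1.71, 1.27 and 1.91 CPM in NC and 2.0, 2.62 and 2.76 CPM in RBM47-OE. ZNF525 was at 6.58, 6.22 and 5.81 CPM in NC and 7.58, 10.8 and 9.48 CPM in RBM47-OE. Neither stayed past the threshold with the GC offset, where ZNF585A stood at 0.37 (adjusted p = 0.30, edgeR) and ZNF525 at 0.29 (adjusted p = 0.12, edgeR). ZNF585A also lost its call in both DESeq2 fits and when NC replicate 1, NC replicate 2, RBM47-OE replicate 2 or RBM47-OE replicate 3 was left out.

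Members that fell were GC-rich, between 58.4% and 70.8% G or C in their exons. ZNF296 had 6.62, 7.26 and 6.78 CPM in NC and 5.18, 4.14 and 4.10 CPM in RBM47-OE, a log2 fold change of -0.62 (SE 0.15, adjusted p = 0.0018, edgeR). ZNF574 had 32.4, 29.5 and 33.0 CPM in NC and 25.6, 22.1 and 21.7 CPM in RBM47-OE, a log2 fold change of -0.45 (SE 0.092, adjusted p = 0.00060, edgeR). All 3 RBM47-OE libraries lay below the NC libraries in each. ZNF787, the member of highest level among those that fell, had 72.95, 72.89 and 73.03 CPM in NC and 65.0, 55.4 and 51.4 CPM in RBM47-OE, a log2 fold change of -0.35 (SE 0.081, adjusted p = 0.0017, edgeR). The others were ZNF653, ZNF628, ZNF324, ZNF444, ZNF358, ZNF526 and ZNF580, with log2 fold changes between -0.44 and -0.28, and only ZNF444, a regulator of the scavenger receptor gene SCARF1, overlapped between groups. With the GC offset, ZNF574 (log2 fold change -0.25, adjusted p = 0.026) and ZNF296 (-0.40, adjusted p = 0.042) stayed past the threshold in edgeR, while ZNF787 stood at -0.14 (adjusted p = 0.12). Leaving out each library in turn ended no call for ZNF296, ZNF574 and ZNF787, but it ended the call of ZNF358 and ZNF526 in 5 of 6 cases, of ZNF324 and ZNF444 in 4, of ZNF628 in 2 and of ZNF653 in 1.

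**Figure D3:**
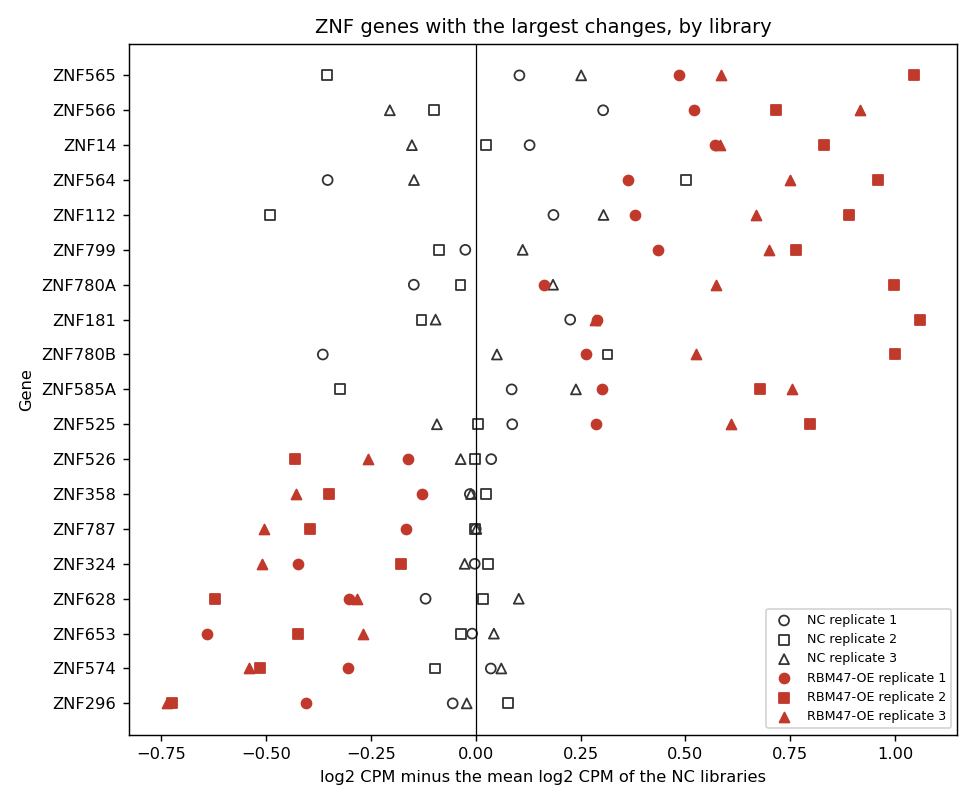
Log2 CPM of each library minus the mean log2 CPM of the NC libraries, for members that met the study's thresholds or had the largest changes without overlap. Open symbols are NC and filled symbols RBM47-OE, with 1 shape per replicate number. RBM47-OE replicate 2 lies farthest from 0 for most genes shown: ZNF565, ZNF181, ZNF780B, ZNF780A, ZNF564, ZNF112, ZNF14, ZNF525, ZNF799, ZNF628 and ZNF526.

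A set of 12 members was higher with the GC offset, and all but ZNF792 were also higher without it. ZNF160, described as a repressor of the TLR4 gene, had 16.9, 17.2 and 21.2 CPM in NC and 23.9, 30.5 and 26.0 CPM in RBM47-OE, a log2 fold change of 0.54 (SE 0.11, adjusted p = 0.00045, edgeR). With the offset its change was 0.40 (SE 0.095, adjusted p = 0.0063, edgeR). ZNF146, a protein made almost wholly of zinc fingers, had 80.2, 71.2 and 75.3 CPM in NC and 88.7, 107.2 and 105.4 CPM in RBM47-OE, a log2 fold change of 0.41 (SE 0.079, adjusted p = 0.00037, edgeR). Every RBM47-OE library lay above every NC library in ZNF160 and ZNF146, and with the offset ZNF146 stood at 0.18 (adjusted p = 0.041, edgeR). ZNF558 and ZNF473 had changes with the offset of 0.34 and 0.38 (adjusted p = 0.016 and 0.019, edgeR). ZNF473 is known as a part of histone pre-mRNA 3' end processing with the U7 snRNP. Over all alternatives run in edgeR, DESeq2 or limma, the largest adjusted p was 0.020 for ZNF558 and 0.24 for ZNF473. The others were ZNF561, ZNF627, ZNF792, ZNF565, ZNF175, ZNF766, ZNF28 and ZNF587. ZNF480 was lower with the offset alone, at -0.48 (adjusted p = 0.0031, edgeR) against -0.14 (adjusted p = 0.34) without it. Its exons hold 37.9% G or C.

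The upstream sequence is printed for 4 examples of members that were higher (ZNF160, ZNF146) and lower (ZNF787, ZNF574). Each is the 250 bases before the RefSeq start in GRCh38.p14, written along the gene's strand. The examples need not be typical: the window of ZNF160 holds 75.6% G or C, against a median of 59.8% in members that were higher. That of ZNF574 holds no GC box, unlike most windows of members that were lower. Capitals mark GC boxes (GGGCGG or its reverse complement CCGCCC) and ETS-type letters (CCGGAA or its reverse complement TTCCGG), and the 8 capitals TTCCGGAA in ZNF787 are both ETS forms overlapping. The windows are chr19:53103423-53103672 (minus strand, ZNF160), chr19:36214856-36215105 (plus strand, ZNF146), chr19:56121296-56121545 (minus strand, ZNF787) and chr19:42068227-42068476 (plus strand, ZNF574).
ZNF160: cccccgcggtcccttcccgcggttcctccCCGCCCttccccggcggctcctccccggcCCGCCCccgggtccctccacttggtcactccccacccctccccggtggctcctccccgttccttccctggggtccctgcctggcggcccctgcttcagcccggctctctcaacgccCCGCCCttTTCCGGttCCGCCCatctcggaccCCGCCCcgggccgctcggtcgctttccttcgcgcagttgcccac
ZNF146: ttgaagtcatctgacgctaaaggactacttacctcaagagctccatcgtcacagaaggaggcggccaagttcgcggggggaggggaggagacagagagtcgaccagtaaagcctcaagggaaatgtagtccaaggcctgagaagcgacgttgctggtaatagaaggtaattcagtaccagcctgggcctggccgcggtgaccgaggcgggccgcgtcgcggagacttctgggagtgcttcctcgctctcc
ZNF787: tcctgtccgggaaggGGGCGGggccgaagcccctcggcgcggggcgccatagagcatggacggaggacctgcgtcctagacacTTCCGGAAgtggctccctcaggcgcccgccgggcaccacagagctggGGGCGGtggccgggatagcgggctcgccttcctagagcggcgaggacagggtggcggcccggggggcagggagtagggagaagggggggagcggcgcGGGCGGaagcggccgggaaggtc
ZNF574: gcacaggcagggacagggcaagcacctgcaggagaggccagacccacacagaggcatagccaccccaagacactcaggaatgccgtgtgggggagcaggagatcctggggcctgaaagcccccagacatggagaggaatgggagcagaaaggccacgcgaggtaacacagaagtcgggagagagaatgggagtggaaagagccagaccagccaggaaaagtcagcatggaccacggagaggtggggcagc
Over the 141 members with a RefSeq upstream window, 61.7% held a GC box and 38.3% ETS-type letters, against 68.4% and 24.95% of the windows of all tested protein-coding genes. The letters TATAAA, searched on the same terms, were in 2.13% of members and 5.08% of those genes. Members that were higher held a GC box in 58.8% of 34 windows and members that were lower in 70% of 10. A match says only that these letters are present.

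Along the chromosome the members fell into 18 groups separated by gaps over 1 Mb, of which 11 held at least 3 members and 147 members in all. Of all genes tested, 19.1% were higher and 16.9% lower at the adjusted threshold. Cluster 10 (36.18 to 37.82 Mb) held 12 members, all with a positive change, of which 6 (50%) were higher. Its median log2 fold change was 0.38 without and 0.22 with the GC offset. Cluster 9 (34.68 to 34.96 Mb, 5 members) had 2 (40%) higher and medians of 0.51 and 0.40. In cluster 17 (55.48 to 56.16 Mb) all 9 members had a negative change and 4 (44.4%) were lower. Its median was -0.28, and -0.07 with the offset. This cluster had the highest median exonic GC content, 65.0%, and none of its members matched the KRAB pattern described below. The largest, cluster 18 (57.19 to 58.48 Mb, 34 members, median 0.14), had 2 (5.88%) higher and 1 (2.94%) lower. Next was cluster 16 (51.57 to 53.46 Mb, 26 members, median 0.29), with 6 (23.1%) higher. Clusters 2, 3 and 13 had 5 (38.5%), 5 (35.7%) and 4 (22.2%) members higher and 1 lower each (7.69%, 7.14% and 5.56%). Cluster 6 (20.92 to 21.77 Mb, 8 members, 37.6% GC) stood at a median of 0.13 without and -0.22 with the offset. The median also changed sign in cluster 2, from 0.19 to -0.0096, and in cluster 7, from 0.20 to -0.081.

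**Figure D4:**
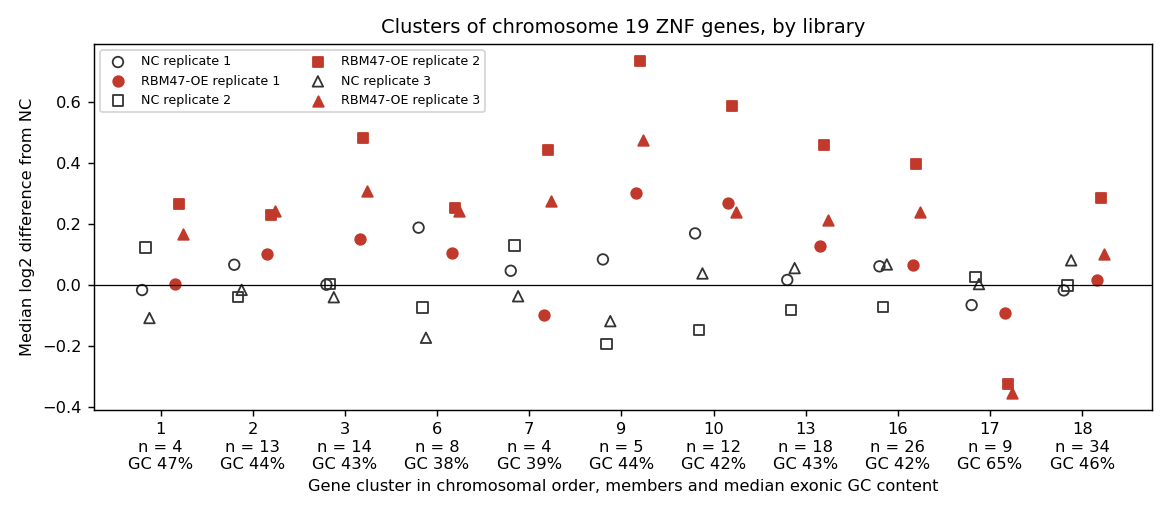
Median log2 difference from NC in each library for the 11 clusters of at least 3 members, with the number of members and median exonic GC content under each. RBM47-OE libraries are set against the mean of all NC libraries and each NC library against the mean of the other NC libraries, which widens the NC points. RBM47-OE replicate 2 has the highest median in all but clusters 2 and 17, and in cluster 17 the 3 RBM47-OE medians lie below 0.

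Domain content moved with GC content. A KRAB-A-like match in the translated GENCODE coding sequence (E, then E or K, then W, with L-Y-x-x-V and M or L within 25 residues) was found in 93 members, and a broader pattern, chosen after the first had missed known KRAB proteins, in 117. The broader pattern took EE, EK, KE, RE or QE, then W or L, with L-Y-x-x-V within 25 residues. Of the 117, 30 (25.6%) were higher and 1 (0.85%) was lower (median log2 fold change 0.29). With the GC offset 10 (8.5%) were higher and 0 lower. The shares of all genes were 19.1% higher and 16.9% lower, and 5.97% and 8.56% with the offset. Of the 40 without a match, 6 (15%) were higher and 9 (22.5%) lower (median -0.11), and with the offset 2 (5%) and 3 (7.5%). A missing match does not show that a KRAB domain is absent, so these 40 may include KRAB proteins. Under 50% GC the members with a match numbered 109 (29 or 26.6% higher, 0 lower). Those without numbered 18 (6 or 33.3% higher, 0 lower). At or above 50% GC there were 8 with a match (1 higher, 1 lower, 12.5% each) and 22 without (0 higher, 9 or 40.9% lower). Members with more than 12 fingers (73) had 21 (28.8%) higher and 3 (4.11%) lower. Members with at most 6 fingers (17) had 1 (5.88%) higher and 4 (23.5%) lower. Their median GC contents were 43.2% and 59.8%.

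Close relatives were compared next. The authors counted uniquely mapped reads, so reads that fit several copies equally well were left out of the counts. In 29 pairs each gene was the other's closest coding sequence, and the changes had the same sign in 22 pairs, with both genes higher in 3 (ZNF181 and ZNF302, ZNF561 and ZNF562, ZNF780A and ZNF780B). With 122 of all 157 changes positive, most pairs of unrelated members would share a sign too, so the 22 pairs do not show agreement particular to relatives. Of 25 members over 90% identical to their closest coding sequence, 10 (40%) were higher and 1 (4%) was lower. Of the other 132 members 26 (19.7%) were higher and 9 (6.82%) lower, and of all genes 19.1% and 16.9%. With the GC offset 2 (8%) of the 25 and 10 (7.58%) of the 132 were higher, against 5.97% of all genes. ZNF417 and ZNF587, known to repress HERV-K elements, are 99.1% identical over 1725 bases. ZNF587 had 16.3, 15.3 and 18.1 CPM in NC and 18.8, 22.7 and 22.5 CPM in RBM47-OE, a log2 fold change of 0.37 (SE 0.10, adjusted p = 0.0072, edgeR), and ZNF417 stood at 0.26 (SE 0.19, adjusted p = 0.30). The call of ZNF587 was lost without NC replicate 2, and 34.99% of its exonic bases are shared with other genes.

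Of 11 members with a known role, ZNF224, ZNF175 and ZNF587 were higher and ZNF444 was lower, so that 4 passed the threshold, against 35.9% of all genes tested. ZNF224, a transcriptional repressor, had 5.56, 4.95 and 5.84 CPM in NC and 7.15, 8.44 and 7.04 CPM in RBM47-OE, a log2 fold change of 0.47 (SE 0.14, adjusted p = 0.0091, edgeR), and 42.4% of its exonic bases overlap a gene on the other strand. ZNF175, a repressor of the HIV-1 promoter, had 5.98, 7.49 and 6.95 CPM in NC and 8.0, 11.6 and 10.2 CPM in RBM47-OE, a log2 fold change of 0.54 (adjusted p = 0.0041, edgeR). Groups did not overlap in either gene. With the GC offset ZNF224 stood at 0.22 (adjusted p = 0.27, edgeR) and ZNF175 at 0.40 (adjusted p = 0.041, edgeR). The call of ZNF224 was lost without NC replicate 2 (adjusted p = 0.066) or RBM47-OE replicate 2 (adjusted p = 0.061), and that of ZNF175 without RBM47-OE replicate 2 (adjusted p = 0.0502), in edgeR. ZNF91, which silences SVA elements, had 5.94, 4.80 and 5.98 CPM in NC and 6.0, 7.29 and 5.97 CPM in RBM47-OE, and its log2 fold change of 0.21 (adjusted p = 0.28) was -0.11 with the GC offset. ZNF274, which recruits SETDB1 to the 3' ends of zinc-finger genes, had a log2 fold change of -0.21 (adjusted p = 0.19). ZNF350, ZNF649, ZNF675 and ZNF808 stood at 0.31, -0.18, 0.06 and 0.12 and their groups overlapped.

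The co-repressor genes that KRAB proteins act through went in both directions. Of 29 listed genes, all tested, 8 (27.6%) were higher and 7 (24.1%) lower at the adjusted threshold in edgeR. The shares of all genes were 19.1% and 16.9%, and the median log2 fold change of the list was -0.04. With the GC offset 1 (3.4%) was higher and 4 (13.8%) were lower, against 5.97% and 8.56% of all genes. TRIM28, itself on chromosome 19, had 914, 945 and 951 CPM in NC and 734, 620 and 657 CPM in RBM47-OE, a log2 fold change of -0.48 (SE 0.076, adjusted p = 6.6e-05, edgeR), and -0.27 (adjusted p = 0.0046) with the offset. All 3 RBM47-OE libraries lay below the NC libraries. SETDB1 stood at -0.05 (adjusted p = 0.70) and its groups overlapped. The HP1 gene CBX5 had 154, 151 and 151 CPM in NC and 173, 199 and 201 CPM in RBM47-OE, a log2 fold change of 0.33 (adjusted p = 0.0011, edgeR), which was 0.08 (adjusted p = 0.34) with the offset. With the offset the maintenance methylation factor UHRF1 (-0.21), the NuRD subunit MTA2 (-0.20) and the ATPase MORC2 (-0.28) were lower and the DNA methyltransferase DNMT3A (0.30) was higher.

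**Figure D5:**
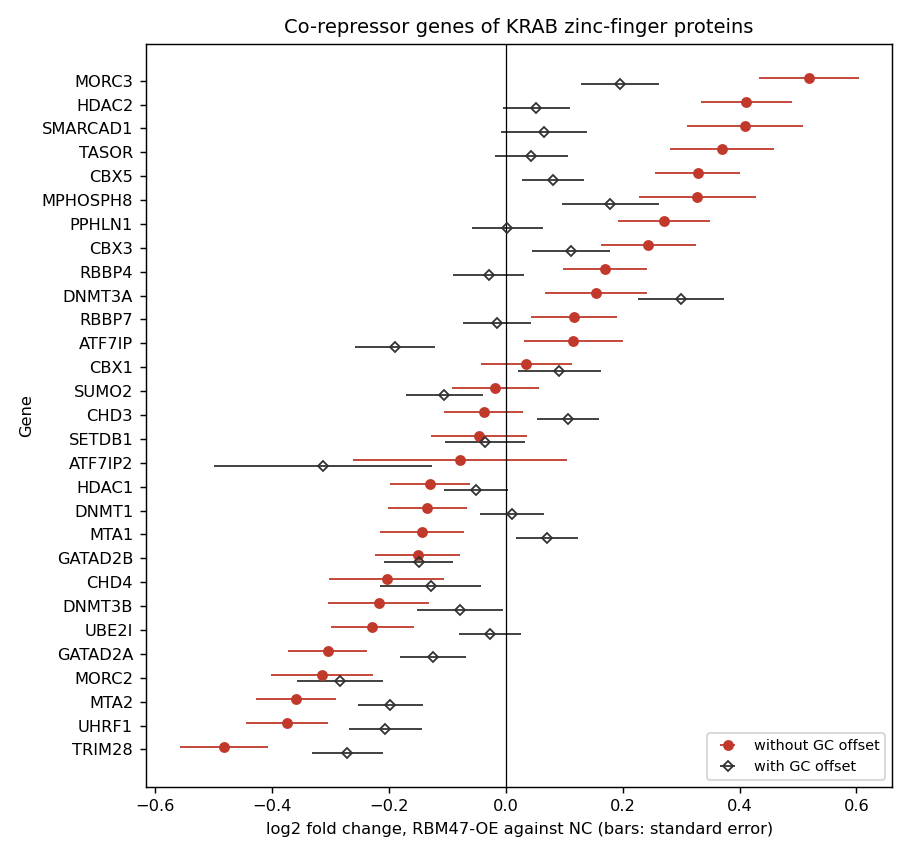
Log2 fold change, RBM47-OE against NC, of 29 co-repressor genes without (filled) and with (open) the GC offset, with standard errors as bars. TRIM28 lies lowest without the offset, at -0.48, and MORC3 highest, at 0.52.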

How the data were processed

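RNA-seq of 3 NC and 3 RBM47-OE libraries was used. The authors used HISAT2 to place trimmed reads on GRCh38, and deposited raw counts of uniquely mapped reads per gene, and deposited FPKM values from the same alignments. The counting tool, annotation release and strand setting are not given in the sources used here. Counts were tested with edgeR 4.0.16 (R 4.3.3; filterByExpr with minimum count 10 and total 15, TMM, quasi-likelihood test, condition as the only term), with Benjamini-Hochberg adjustment over all genes. The standard error is the size of the log2 fold change over the square root of F and was left out below 0.001. Coordinates, exonic GC content, exonic overlap and translated coding sequences came from GENCODE 44, since no protein table was at hand; identities came from BLAST 2.17.0. The GC offset used loess with span 0.3 on log2 CPM (prior count 2) minus each gene's mean over all libraries. The members and lists were chosen with earlier results of these data known. Named genes were members at the study's thresholds, the 8 largest changes in each direction (adjusted p under 0.05, mean log2 CPM of at least 0, no overlap), the 5 highest by FPKM, listed members with known roles, and co-repressor genes. ZNF738, ZNF792, ZNF480 and others called with the GC offset, paralogs, and ZNF254 and ZNF865 for their sequences, were named after their values were seen. Alternatives were DESeq2 1.42.0, limma 3.58.1 on log2(FPKM + 1) and log2(FPKM + 0.1), other scalings and filters, offsets, the replicate number as a block and each library left out.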

Additional observations from a re-analysis of the deposited data

How the results depend on the processing

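The median log2 fold change of the members kept its sign under every alternative run, from 0.07 to 0.29. With library totals, 5 members were lower and 0 at the study's thresholds, and all genes shifted by 0.06. With the GC offset 12 were higher and 3 lower, and 1 was higher at the study's thresholds; with the GC offset and replicate block together these were 15, 4 and 1, and 0 were lower at those thresholds. The length offset left 0 lower there. limma gave 23 higher and 3 lower with either pseudocount, and at the study's thresholds 0 and 0 with log2(FPKM + 1) and 5 and 0 with log2(FPKM + 0.1). Leaving out each library in turn gave 15 to 58 higher and 3 to 15 lower, and 1 to 21 higher and 0 to 1 lower at the study's thresholds. The causes were not tested, and the shares of all genes called without each library are not given here. The replicate block gave 39 higher and 11 lower, 35 and 10 of them shared with the fit without it. Replicate numbers did not pair the libraries (correlations of deviations -0.06, -0.01 and -0.02).

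Of 738 values of 41 named genes, 588 kept direction and side of the threshold, 128 lost the call, 4 gained it and 18 reversed. With the GC offset, and with it and the block, the reversed values were -0.11 and -0.11 for ZNF91, 0.071 and 0.070 for ZNF579, 0.045 and 0.046 for ZNF581, -0.22 and -0.22 for ZNF675 and -0.10 and -0.11 for ZNF808, and ZNF428 stood at 0.00045 with both. ZNF675 was at -0.010 with the length offset. Leaving out each library in turn gave -0.038 (without NC replicate 3) to 0.15 for ZNF675, -0.57 to 0.059 (without NC replicate 2) for ZNF649 and -0.043 (without RBM47-OE replicate 2) to 0.32 for ZNF808. SETDB1 was at 0.015 with library totals and at 0.021 and 0.025 in the limma fits. Low counts limit the least expressed members.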
